A study of Mus musculus with 16 samples.

Results

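The 10 genes described here encode subunits of inward rectifier potassium (Kir) channels. Kcnj2, Kcnj4, Kcnj12 and Kcnj14 belong to the Kir2 family, Kcnj3, Kcnj5, Kcnj6 and Kcnj9 to the Kir3 family, Kcnj10 encodes Kir4.1 and Kcnj11 encodes Kir6.2. They were chosen by name, through every probe whose RefSeq accession belongs to one of them, which gave 13 probes of the 55598 kept on the array and 10 genes of the 20124 named there. The question was which of these genes mitral cells, which carry the output of the olfactory bulb, express of their own, and whether they shift when Kir2.1, the channel that Kcnj2 encodes, is introduced.

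The cells came from ICR mice that had been electroporated in utero on embryonic day 12. Control cells had received pCAG-EYFP alone, and Kir2.1 cells had received pCAG-EYFP together with pCAG-Kir2.1. The CAG promoter is active in most cell types, so the constructs were not restricted to mitral cells, and all groups carried EYFP. Collection on postnatal day 3 (P3) or postnatal day 6 (P6) gave 4 groups, P3 control, P3 Kir2.1, P6 control and P6 Kir2.1. Each group comprised 40 hand-picked fluorescent cells in 4 pools of 10, one pool to an array. Cells had been kept when PCR found both EYFP and pcdh21, the gene Cdhr1 of mitral and tufted cells. How many animals they came from is not given in the sources used here, so the p-values measure the spread between pools, part of which may be technical.

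Kir channels pass potassium into a cell more readily than out of it and thereby hold the resting potential near the equilibrium potential of potassium. Kir2 channels are open at rest and rectify strongly, Kir3 channels (GIRK) open when G protein beta-gamma subunits are released by receptors coupled to Gi and Go, Kir4.1 is the main potassium channel of astrocytes, and Kir6.2 joins with a sulfonylurea receptor to form the KATP channel, which closes when ATP is plentiful. All of them need the membrane lipid PIP2. Introduced Kir2.1 is a common means of making neurons less excitable.

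Each array was a 1-colour Agilent expression array. Signals are given on the log2 scale with the 75th percentile of the array, over probes detected everywhere, set to 0, and a probe counts as well above background where the scanner software's flag says so. That flag passed for 34.3% to 41.1% of probes on an array, and no gene spot was saturated. The dimmest probe with that flag lay between -8.27 and -6.90 on the log2 scale, so a value near or below that range sets no level. Values of different genes come from different probes and are not set against each other. Of the 14 mitral and tufted cell markers examined, 13 were tested and Cdhr1, Tbx21, Eomes, Tbr1 and Slc17a7 were well above background on all 16 arrays, while Lhx5 was on none. All P3 arrays shared 1 slide and scan and all P6 arrays another, so slide and age cannot be told apart. On each slide, control pools lay in row 1 and Kir2.1 pools in row 2, so row and treatment cannot be told apart either.

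Promoter sequences are given for Kcnj4, Kcnj9 and Kcnj10, whose signals lay furthest apart between P6 groups among the members with an entry in the RefSeq promoter table (8 of the 10). Each is the 250 bases before the gene's start in GRCm38.p6, 5′ to 3′ on the gene's strand. The windows are chr15:79505242-79505491 on the minus strand for Kcnj4, chr1:172329323-172329572 on the minus strand for Kcnj9 and chr1:172340960-172341209 on the plus strand for Kcnj10. Kcnj9 and Kcnj10 are neighbours on chromosome 1 and point away from each other. Capitals mark matches on either strand to the CRE half-site TGACG, the GC box GGGCGG and the TATA box TATAAA.
Kcnj4: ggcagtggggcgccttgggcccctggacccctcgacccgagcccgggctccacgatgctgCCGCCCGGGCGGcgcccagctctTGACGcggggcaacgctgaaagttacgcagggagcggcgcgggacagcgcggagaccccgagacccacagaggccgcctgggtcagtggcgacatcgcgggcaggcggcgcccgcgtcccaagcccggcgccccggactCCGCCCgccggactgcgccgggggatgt
Kcnj9: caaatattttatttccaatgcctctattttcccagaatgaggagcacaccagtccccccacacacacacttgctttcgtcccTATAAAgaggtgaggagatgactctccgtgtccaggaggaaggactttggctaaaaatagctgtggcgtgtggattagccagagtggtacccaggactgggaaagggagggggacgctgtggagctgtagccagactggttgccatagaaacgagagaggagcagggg
Kcnj10: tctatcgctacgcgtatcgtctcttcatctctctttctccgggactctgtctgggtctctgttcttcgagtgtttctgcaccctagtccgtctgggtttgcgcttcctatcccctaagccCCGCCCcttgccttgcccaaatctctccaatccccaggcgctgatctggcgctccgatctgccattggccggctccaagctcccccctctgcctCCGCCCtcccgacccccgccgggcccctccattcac
The AP-1 site TGANTCA was also searched for and has no match in these windows. In the Kcnj4 window the half-site TGACG lies at positions -167 to -163 before the start, and GC boxes at -190 to -185, -184 to -179 and -28 to -23. TATAAA lies at -168 to -163 in the Kcnj9 window, and the Kcnj10 window has GC boxes at -130 to -125 and -36 to -31. Of 32851 mouse promoter windows of this length, 17.8% hold TGACG, 6.7% hold TGANTCA, 32.7% hold GGGCGG and 12.4% hold TATAAA. The Kcnj4 window has 35 CG dinucleotides, more than 97.0% of the windows. Kcnj10 has 17, and 76.5% of the windows have fewer. Kcnj9 has 5, close to the median of 6. These matches describe the letters of the windows and say nothing of binding.

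Endogenous Kir transcripts were detected in a patchwork of pools rather than in all of them. On an array, 1 to 4 of the 13 probes were well above background, and no member was so on 12 or more of the 16 arrays. Kcnj4 came closest, on 11 arrays, followed by Kcnj10 on 8 and Kcnj11 on 8 by its tested probe, or on 9 by either of its probes. Kcnj9 and Kcnj12 were each detected on 4 arrays, Kcnj14 on 2 and Kcnj3 on 1. Kcnj2, Kcnj5 and Kcnj6 were never well above background. Thus 3 of the 10 members were never detected, against 23.9% of all named genes, and 0 members were detected on all 16 arrays, against 32.3% of named genes. In pooled cDNA, fewer cells of a type and less RNA per cell cannot be told apart, and a detected pool does not say how many of its 10 cells held the transcript. Of the 10 members, 5 passed the filter for testing, well above background on at least 4 arrays, against 59.8% of named genes, and these 5 are Kcnj4, Kcnj9, Kcnj10, Kcnj11 and Kcnj12. The other Kir genes on the array gave 0 tested genes of 5. Among them, Kcnj15 and Kcnj16 were well above background on 3 arrays each, and Kcnj1, Kcnj8 and Kcnj13 on none.

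**Figure D1:**
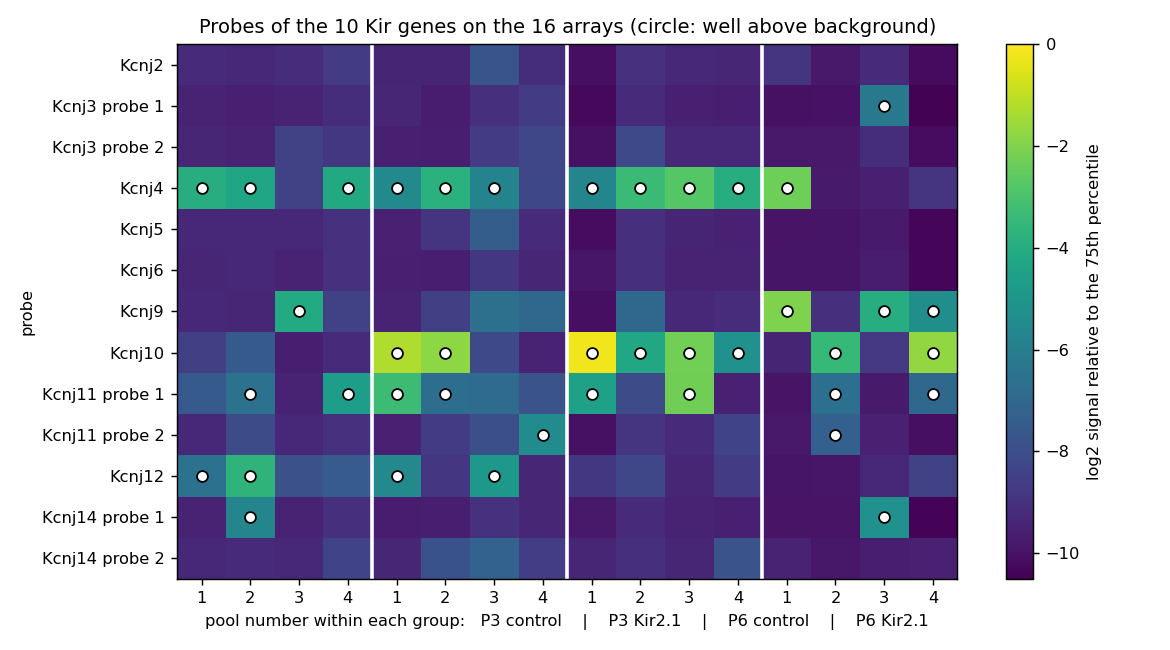
Signal of the 13 probes of the 10 Kir genes (rows) on the 16 arrays (columns, 4 pools a group, white lines between groups). Colour is the log2 signal relative to the 75th percentile of the array, and a circle marks a probe well above background. Kcnj4 has circles in 11 columns, Kcnj10 in 8, and Kcnj2, Kcnj5 and Kcnj6 in none.

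Among the Kir2 genes, Kcnj2, the endogenous gene of the introduced channel, lay between -10.18 and -7.79 on all 16 arrays and was not well above background on any. Its group means were -9.10 ± 0.29 (SD, n = 4) for P3 control, -8.93 ± 0.77 for P3 Kir2.1, -9.44 ± 0.43 for P6 control and -9.51 ± 0.57 for P6 Kir2.1. The probe thus showed no signal in cells that had received Kir2.1 either. Its place in the transcript is not known here, and whether it can read the introduced cDNA was not tested, so it checks nothing about the labels.

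Kcnj4 encodes Kir2.3. At P3 it read -3.97, -4.30, -8.41 and -4.12 in the 4 control pools and -5.49, -3.79, -5.80 and -8.23 in the Kir2.1 pools. In each group 3 pools were high and 1 was at background. At P6 it read -5.72, -3.35, -2.76 and -3.97 in control and -2.33, -9.76, -9.58 and -8.92 in Kir2.1. All 4 P6 control pools were well above background, against 1 of the 4 P6 Kir2.1 pools, and that one pool exceeded every control pool, so the groups overlapped. Ordered by mean, P6 control stood at -3.95 ± 1.28, P3 control at -5.20 ± 2.14, P3 Kir2.1 at -5.83 ± 1.83 and P6 Kir2.1 at -7.65 ± 3.57, with each step in that order smaller than the SD of the lower group.

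Kcnj12 encodes Kir2.2. Its P3 values were -6.55, -3.68, -7.88 and -7.50 in control and -5.57, -8.85, -4.90 and -9.38 in Kir2.1, with 2 pools of each group well above background. Its P6 values ran from -9.39 to -8.26 in control and from -9.91 to -8.45 in Kir2.1. Not one of the 8 P6 pools was well above background, so detection of Kcnj12 was restricted to 4 of the 8 P3 pools. The means were -6.40 ± 1.90 and -7.17 ± 2.27 at P3 and -8.76 ± 0.47 and -9.39 ± 0.68 at P6, control before Kir2.1.

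Kcnj14 encodes Kir2.4 and has a pair of probes. The first was well above background in P3 control pool 2 (-5.74) and in P6 Kir2.1 pool 3 (-5.18), and its other 14 values were background readings between -10.38 and -9.00. The second probe stayed at background throughout, between -9.81 and -7.20.

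Of the Kir3 genes, Kcnj9, which encodes the GIRK3 subunit, was the one detected in more than 1 pool. At P3 it read -9.30, -9.37, -4.08 and -8.49 in control and -9.46, -8.50, -6.63 and -6.95 in Kir2.1. Only control pool 3 was well above background at that age. At P6 it read -10.07, -6.99, -9.32 and -9.16 in control and -2.03, -9.07, -3.94 and -5.27 in Kir2.1. Here 3 of the 4 Kir2.1 pools and 0 of the 4 control pools were well above background, with Kir2.1 pool 2 inside the control range. The P6 Kir2.1 mean of -5.08 ± 2.97 was the highest of the 4 groups, followed by P3 control (-7.81 ± 2.52), P3 Kir2.1 (-7.89 ± 1.33) and P6 control (-8.89 ± 1.32).

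Kcnj3 encodes GIRK1, the subunit that most neuronal GIRK channels contain. One of its probes was well above background in P6 Kir2.1 pool 3 (-6.26), which was also a pool with Kcnj9 signal, and in no other pool. The other Kcnj3 probe and the probes of Kcnj5 (GIRK4) and Kcnj6 (GIRK2) gave background readings throughout, with group means between -9.98 and -8.76.

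Kcnj10, the glial Kir4.1, gave the widest range. In P3 control it read -8.50, -7.51, -9.61 and -9.24, with no pool well above background. In P3 Kir2.1 it read -1.25, -1.78, -8.20 and -9.49, which splits the group into 2 bright and 2 dim pools. In P6 control it read -0.23, -4.25, -2.25 and -5.18, all well above background. In P6 Kir2.1 it read -9.43, -3.47, -8.75 and -1.71, again 2 bright and 2 dim pools. The means were -2.98 ± 2.20 in P6 control, -5.18 ± 4.27 in P3 Kir2.1, -5.84 ± 3.83 in P6 Kir2.1 and -8.71 ± 0.92 in P3 control.

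Astrocyte and radial glia markers were measured beside Kcnj10, and 11 of the 15 on the array were tested. Their summed signal, in units of the 75th percentile, was 2.17 to 7.47 in control and 4.49 to 11.7 in Kir2.1 pools at P3, and 14.5 to 18.0 and 7.38 to 22.7 at P6. The P6 control pools were therefore higher than every P3 pool for these markers, as they were for Kcnj10 against P3 control. Within groups the pools did not line up: in P6 Kir2.1 the marker sum was 7.62, 13.7, 22.7 and 7.38 in pools 1 to 4, while Kcnj10 was bright in pools 2 and 4. Each of the 15 markers was well above background on at least 1 array, Gja1 and Gpr37l1 were well above background on 1 array each. The part of these markers in the Kcnj10 signal was not tested.

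Kcnj11, which encodes the pore of the KATP channel, was well above background in 2 of 4 pools of every group by its tested probe. The P3 values of that probe were -7.54, -6.54, -9.44 and -4.67 in control and -3.30, -6.71, -6.84 and -7.81 in Kir2.1. The P6 values were -4.51, -8.05, -2.28 and -9.55 in control and -9.95, -6.66, -9.75 and -7.00 in Kir2.1. High and low pools stood side by side in every group. The means, in the same order, were -7.05 ± 1.99, -6.16 ± 1.97, -6.10 ± 3.31 and -8.34 ± 1.75. They differed by at most 2.24, less than the SD of P6 control but more than that of each other group. A second probe of Kcnj11 was well above background in P3 Kir2.1 pool 4 (-5.43) and P6 Kir2.1 pool 2 (-7.30), and over the 16 arrays it correlated at r = -0.11 with the first, so the 2 probes disagree and the level of Kcnj11 is uncertain.

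**Figure D2:**
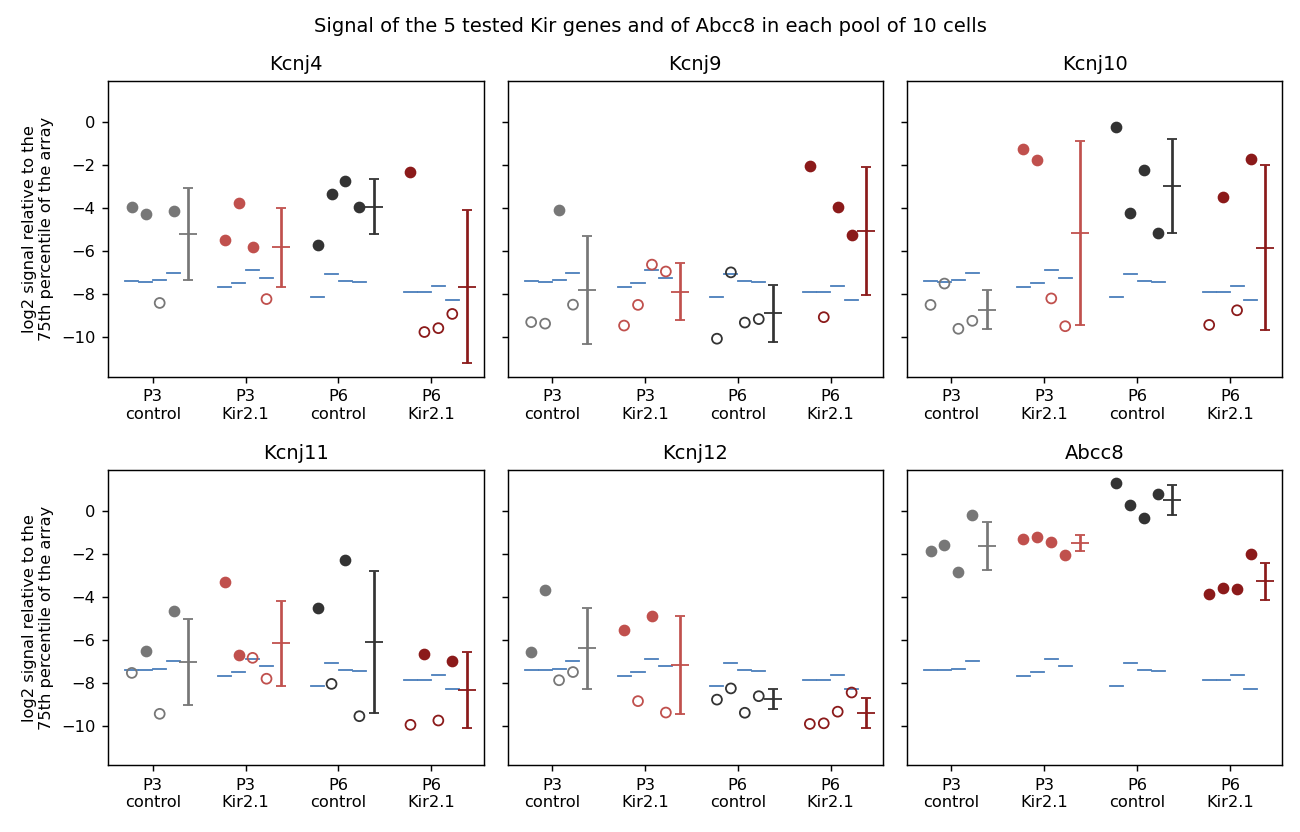
Log2 signal, relative to the 75th percentile of the array, of the 5 tested Kir genes and of Abcc8 in each pool of 10 cells, by group. Filled points are well above background and open points are not, blue ticks give the dimmest signal that was still well above background on that array, and the bars are mean ± SD (n = 4). Kcnj4 is filled in 4 P6 control pools and 1 P6 Kir2.1 pool, and the Abcc8 pools of P6 Kir2.1 lie below those of P6 control.

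The comparison of Kir2.1 with control asked whether endogenous Kir genes shift when the channel is introduced. No tested member passed the threshold of an adjusted p of 0.05 at either age (limma on all 16 arrays, Benjamini-Hochberg over 21070 features). At P3, 0 of 5 members passed, where 0.00949% of all features did. The adjusted p-values ran from 0.834 to 0.997. At an unadjusted p under 0.05 the count was also 0 of 5, where 6.53% of all features were called, and the groups overlapped for all 5 members, where 6.80% of all features separated. Kcnj10 had the largest P3 difference, 3.53 (SE 2.07, 95% interval -0.91 to 7.98, adjusted p = 0.834), which rests on its 2 bright pools. The other differences were 0.88 for Kcnj11 (-2.47 to 4.23), -0.77 for Kcnj12 (-2.98 to 1.45), -0.63 for Kcnj4 (-4.01 to 2.75) and -0.07 for Kcnj9 (-3.18 to 3.03). These intervals leave room for differences of several log2 units either way, so the data do not show that the genes were alike.

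At P6, 0 of 5 members passed, where 1.76% of all features did. Kcnj4 and Kcnj9 had an unadjusted p under 0.05, 2 of 5 members against 17.5% of all features. The groups overlapped for all 5, where 8.89% of all features separated. The Kcnj4 difference was -3.70 (SE 1.57, 95% interval -7.09 to -0.32, adjusted p = 0.244). Kcnj9 differed by 3.81 in the other direction (SE 1.44, 0.71 to 6.91, adjusted p = 0.192). Since 3 of the 4 arrays through which Kcnj9 passed the filter are P6 Kir2.1 pools, the filter favoured a difference on this side. The value and its place in the unadjusted count are a description. Kcnj10 differed by -2.86 (-7.30 to 1.58, adjusted p = 0.502), Kcnj11 by -2.24 (-5.60 to 1.11, adjusted p = 0.484) and Kcnj12 by -0.63 (-2.85 to 1.58, adjusted p = 0.8). No P6 pool had Kcnj12 well above background, so its P6 difference compares background readings and cannot show a shift. Its place in the P6 counts and median is a description. The neighbours Kcnj9 and Kcnj10 thus stood on opposite sides of 0 at P6, neither past the threshold. The median of the 5 differences was -2.24, beside -0.13 over all features.

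The size of these differences changed with the handling of low signals. With normexp background correction and its offset of 50, the P6 differences were -1.03 for Kcnj4 and 0.93 for Kcnj9. With signals raised to the lowest detected signal of the array, the difference was -2.58 for Kcnj4. With each of the 16 pools left out in turn, the Kcnj4 difference ran from -5.47 to -3.00 and its adjusted p from 0.0541 to 0.41. The lowest p came without P6 Kir2.1 pool 1, the pool in which Kcnj4 was bright. The Kcnj9 difference ran from 2.79 to 5.14 and its adjusted p from 0.0722 to 0.373, the lowest without P6 Kir2.1 pool 2, its dim pool, and the highest without P6 Kir2.1 pool 1, its brightest.

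Averaged over P3 and P6, 0 of 5 members passed, where 0.712% of all features did, and 0 of 5 had an unadjusted p under 0.05, where 13.5% of all features had. The mean differences ran from -2.17 for Kcnj4 (SE 1.11, adjusted p = 0.418) to 1.87 for Kcnj9 (adjusted p = 0.45), with Kcnj10 at 0.34. The interaction, which asks whether the Kir2.1 difference changed between the ages, was also called in 0 of 5 members, where 0.0902% of all features were called. One member, Kcnj10, had an unadjusted p under 0.05 for the interaction, where 10.7% of all features had. Its Kir2.1 difference went from 3.53 at P3 to -2.86 at P6, an interaction of -6.39 (SE 2.92, -12.68 to -0.11, adjusted p = 0.459). For Kcnj9 the interaction was 3.88 (adjusted p = 0.531). Both Kcnj9 values are a description, since most arrays through which it passed the filter were P6 Kir2.1 pools.

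**Figure D3:**
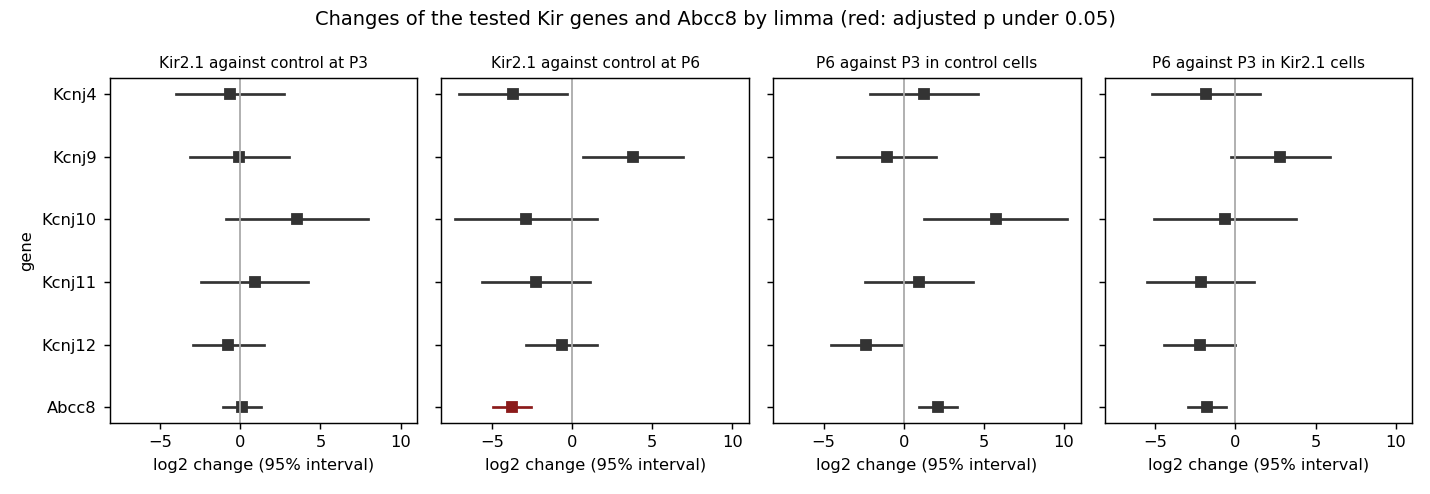
Difference in log2 signal (squares) with its 95% interval (lines) for the 5 tested Kir genes and Abcc8 in 4 comparisons by limma. Red marks an adjusted p under 0.05. The one red point is Abcc8 for Kir2.1 against control at P6 (-3.78), and every interval of a Kir gene spans several log2 units.

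Between P3 and P6 in control cells, 0 of 5 members passed, where 2.59% of all features did. Kcnj10 and Kcnj12 had an unadjusted p under 0.05, 2 of 5 members against 17.9% of all features, and the same 2 members had groups that did not overlap, where 12.7% of all features separated. Kcnj10 was higher at P6 in 4 of 4 pools, by 5.74 (SE 2.07, 95% interval 1.29 to 10.18, adjusted p = 0.161). As a bound on the group means, which leaves out the spread between pools, this is at least 19.8-fold. The interval reaches down to smaller differences. Kcnj12 differed by -2.36 (SE 1.03, -4.57 to -0.14, adjusted p = 0.248). Kcnj12 passed the filter through 4 P3 arrays alone, 2 control and 2 Kir2.1, and was well above background on 0 of the 8 P6 arrays. A member kept in that way had to be higher at P3, so its age differences and its place in these counts are a description and support nothing. Kcnj4 differed by 1.25, Kcnj11 by 0.95 and Kcnj9 by -1.07, with adjusted p-values of 0.73, 0.8 and 0.749. When P6 control pools 1 and 3 were left out, a choice made after seeing that they had the highest astrocyte marker sums of their group, the Kcnj10 difference was 4.00 (adjusted p = 0.51). Pools 1 and 3 were also the brightest Kcnj10 pools of that group, so a smaller difference follows from the choice itself. Normexp correction gave 2.28. Astrocyte markers moved with this comparison: all 11 tested members were higher at P6 in control, 1 of them past the threshold (Fabp7, 2.21, adjusted p = 0.0381). Markers of some other cells, though not of all, were also mostly higher at P6 in control. Of the interneuron markers 12 of 14 were positive and 4 passed (median 2.67, beside -0.07 over all features). Of the ensheathing cell markers 7 of 7 were positive and 1 passed (median 1.69), and of the microglia markers 5 of 6 were positive and 0 passed (median 2.68). Oligodendrocyte lineage markers were positive in 8 of 10 and 0 passed (median 0.57). Vascular cell markers were split, with 4 of 7 positive and 0 passed (median 0.11). Mitral and tufted cell markers were split too, with 7 of 13 positive and 1 passed (median 0.26). The part of these markers in the Kcnj10 difference was not tested.

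In Kir2.1 cells the comparison of P6 with P3 also called 0 of 5 members, where 0.878% of all features passed. Kcnj12 had an unadjusted p under 0.05, 1 of 5 members against 15.0% of all features, and no member had groups that did not overlap, where 10.5% of all features separated. Kcnj12 differed by -2.22 (adjusted p = 0.332), which is again a description, since its P3 arrays alone took it through the filter. Kcnj9 differed by 2.81 (adjusted p = 0.384). This too is a description, since 3 of the 4 arrays that took it through the filter were P6 Kir2.1 pools. Kcnj11 stood at -2.18, Kcnj4 at -1.82 and Kcnj10 at -0.66, and their adjusted p-values were 0.559, 0.639 and 0.916. The comparisons by age and by Kir2.1 share pools, so a bright or dim group enters more than one of them.

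The partners of Kir channels were examined as lists. Kir6.2 depends on a sulfonylurea receptor, and the genes of both receptors were on the array. Abcc8, which encodes SUR1 and is the neighbouring gene of Kcnj11, was well above background on all 16 arrays. In P6 control it read 1.27, 0.27, -0.33 and 0.76, and in P6 Kir2.1 it read -3.89, -3.59, -3.64 and -2.02. Every Kir2.1 pool lay below every control pool, where 8.89% of all features separated. Abcc8 fell by 3.78 with Kir2.1 at P6 (SE 0.55, 95% interval -4.97 to -2.59, adjusted p = 0.00621), 1 of 1 tested receptor genes in a comparison where 1.76% of all features passed. At P3 it read -1.87, -1.60, -2.87 and -0.19 in control and -1.30, -1.25, -1.46 and -2.06 in Kir2.1, which overlap, with a difference of 0.12 (adjusted p = 0.989). The group means were -1.63 ± 1.11 and -1.52 ± 0.37 at P3 and 0.49 ± 0.68 and -3.28 ± 0.85 at P6. The test of whether the Kir2.1 difference changed with age gave an interaction of -3.89 (SE 0.78, adjusted p = 0.0903), which did not pass. Nor did the difference between P6 and P3 in control (2.13, adjusted p = 0.0606) or in Kir2.1 cells (-1.77, adjusted p = 0.151).

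A second probe of Abcc8 read 1.42, 0.43, -0.06 and 1.07 in P6 control and -4.47, -4.10, -4.53 and -2.13 in P6 Kir2.1, again without overlap. The call was lost when the P6 arrays were fitted alone (adjusted p = 0.0747) and held without P6 control pools 1 and 3 (-3.80, adjusted p = 0.0207). Markers of olfactory bulb interneurons, of which 14 of 18 were tested, moved with the same comparison. Their summed signal was 5.86 to 11.7 in P6 control and 3.34 to 5.75 in P6 Kir2.1, against 2.56 to 3.35 and 2.01 to 3.89 at P3, and Calb1 was never detected. With Kir2.1 at P6, 12 of the 14 were lower and 1 passed (Penk, an opioid peptide precursor, -6.32, adjusted p = 0.0269), with a median of -2.08. Penk was well above background on 4 arrays, the fewest that the filter allows. If most of these were P6 control pools, the filter favoured a lower value in Kir2.1, so its call is a description. Over all features 1.76% passed, and the median was -0.13. Of the mitral and tufted cell markers 8 of 13 were positive and 1 passed (Reln, 3.89, adjusted p = 0.0208), with a median of 0.57. Of the vascular cell markers 6 of 7 were positive and 0 passed (median 1.17), and of the microglia markers 5 of 6 were negative and 0 passed (median -1.56). Astrocyte markers were negative in 8 of 11 (median -0.89), ensheathing cell markers in 6 of 7 (median -0.86) and oligodendrocyte lineage markers in 6 of 10 (median -0.43), and 0 passed in each list. The part of these markers in the Abcc8 difference, and in the Kcnj4 and Kcnj10 differences at P6, was not tested. Abcc9, which encodes SUR2, was well above background on 2 arrays and not tested.

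**Figure D4:**
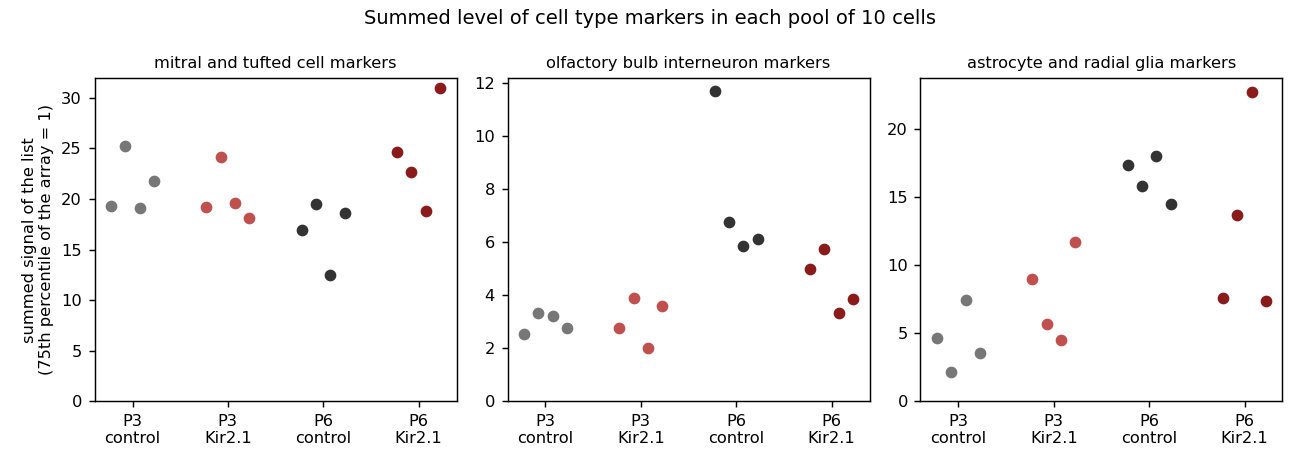
Summed linear signal of cell type markers in each pool, in units of the 75th percentile of the array, for the mitral and tufted, interneuron and astrocyte lists, by group. Interneuron markers lie between 5.86 and 11.7 in P6 control and between 3.34 and 5.75 in P6 Kir2.1, and astrocyte markers between 14.5 and 18.0 in P6 control.

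Of the G protein beta and gamma subunits, 13 of 15 genes were tested, and with Kir2.1 0 passed at P3 (10 positive, median 0.32, beside -0.03 over all features) and 0 at P6 (7 positive, median 0.14, beside -0.13), with 0 and 5 of 13 at an unadjusted p under 0.05, where 6.53% and 17.5% of all features were. Between P3 and P6 in control, 1 of 13 fell and 0 rose, where 2.59% of all features passed. Gng7, a gamma subunit, was -0.41, -0.65, -0.15 and -0.79 in P3 control and -2.09, -4.04, -1.97 and -2.19 in P6 control, a fall of all pools without overlap (change -2.08, adjusted p = 0.0396), which was lost in 10 of 30 alternatives. Between these groups 12.7% of all features separated. A second probe of Gng7 overlapped, at -3.34, -3.01, -3.89 and -3.44 in P3 control and -4.82, -3.45, -3.92 and -4.47 in P6 control. All 5 Gi and Go alpha genes were tested, and 0 passed in any comparison. Gnai2 differed by 1.64 with Kir2.1 at P3 (adjusted p = 0.718) and Gnaz by 1.27 (adjusted p = 0.797).

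Of 23 receptors that can open GIRK channels, 14 were tested. With Kir2.1, 0 passed at P3 (5 positive, median -0.13) and 0 at P6 (4 positive, median -0.17). At an unadjusted p under 0.05 were 4 and 3 of 14, where 6.53% and 17.5% of all features were. With age in control cells, 1 of 14 rose and 1 fell, where 2.59% of all features passed. Oprm1, the mu opioid receptor, rose from 2.19, 2.44, 2.46 and 2.26 in the P3 control pools to 3.52, 3.38, 3.78 and 3.84 in the P6 control pools (change 1.29, adjusted p = 0.00392), a tight separation compared with the Kir genes. In that comparison 12.7% of all features separated. With Kir2.1, Oprm1 stood at 3.09, 2.60, 3.02 and 3.09 at P3 and 3.01, 2.90, 2.88 and 2.94 at P6. Its Kir2.1 differences of 0.61 at P3 (adjusted p = 0.556) and -0.70 at P6 (adjusted p = 0.0836) did not pass. Neither pair of groups overlapped, where 6.80% and 8.89% of all features separated. A second Oprm1 probe and a second probe of the next gene, Sstr1, gave background readings in the P3 and P6 control pools. Sstr1, a somatostatin receptor, fell from -3.43, -4.36, -2.67 and -3.82 in P3 control to background readings between -10.29 and -9.24 in P6 control (adjusted p = 0.0454). As a bound on the group means under the main scaling, it was at least 15.3-fold higher at P3. With normexp correction the difference was smaller, -1.65. The call of Sstr1 was lost in 20 of 30 alternatives. The tested Sstr1 probe was well above background on 9 arrays, of which 1, a P6 Kir2.1 pool, was at P6. It passed the filter almost wholly through P3 arrays, so the filter favoured a higher value at P3.

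Among 11 tested regulators of GIRK channels (of 13), 0 passed in any comparison. The list includes RGS proteins and KCTD proteins, only some of which are subunits of GABA-B receptors. Kctd2 differed by 1.08 with Kir2.1 at P6 (adjusted p = 0.269) and Rgs7 by 2.14 (adjusted p = 0.294). Of the scaffolds that anchor Kir2 channels, 11 of 14 were tested and 0 passed with Kir2.1 at P3 (7 positive, median 0.25) or P6 (2 positive, median -0.72). Apba1, the adaptor Mint1 of the CASK complex, rose with age in control cells (3.40, adjusted p = 0.00596), from -5.78, -4.51, -7.13 and -6.07 to -2.40, -1.94, -3.12 and -2.47, the 1 scaffold gene of 11 called, where 2.59% of all features passed. Of the enzymes that make and remove PIP2, 10 of 11 were tested, and 0 passed with Kir2.1 at P3 (5 positive, median 0.26) or P6 (2 positive, median -1.11). At an unadjusted p under 0.05 were 1 and 5 of these 10 enzymes, and 1 and 1 of the 11 scaffold genes. Of all features, 6.53% and 17.5% were. Plcb4, a phospholipase C that cleaves PIP2, rose with age in control cells (4.08, adjusted p = 0.0128), from -5.60, -6.84, -8.18 and -5.16 to -1.92, -3.29, -2.71 and -1.54. It was the 1 enzyme of 10 called in that comparison. The pools of both genes separated without overlap, where 12.7% of all features did. A second Plcb4 probe overlapped, at -2.62, -3.10, -7.21 and -3.70 in P3 control and -3.05, -1.99, -2.91 and -6.64 in P6 control, and the mean of both probes gave 2.29 with an adjusted p of 0.111. The 2-pore potassium leak channels, the other class that sets the resting potential, had 8 of 14 genes tested and 0 past the threshold in any comparison, with Kcnk15 at 0.95 (adjusted p = 0.782) and Kcnk3 at 2.88 (adjusted p = 0.847) with Kir2.1 at P3. Interneuron and astrocyte markers moved with the age comparison in control cells, in which Gng7, Oprm1, Sstr1, Apba1 and Plcb4 were called. The summed interneuron signal was 2.56 to 3.35 in P3 control and 5.86 to 11.7 in P6 control, and the summed astrocyte signal 2.17 to 7.47 and 14.5 to 18.0. The part of these markers in the 5 calls was not tested. Between P3 and P6 in Kir2.1 cells, in the mean over ages and in the interaction, 0 genes of these partner lists passed.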

How the data were processed

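Per the file headers, the 16 arrays were read with Agilent Feature Extraction 10.7.3.1, and the deposited scanner tables hold background-subtracted spot intensity on a linear scale. The authors' deposited value table holds the same signal as a ratio to the array's 75th percentile, since setting it against the scanner values gave 0.9992 to 1.0 on every array. Its columns have medians of 0.0395 to 0.13, it is linear and not centred on genes, and its scale, centring and direction are thus known. Arrays correlated at 0.926 at most and shared at most 0.0018% of values, so each pool counted as 1 replicate.

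From the deposited intensities, control and outlier spots were left out, spots of a probe were averaged, and log2 signals were scaled to the 75th percentile over the 12103 probes well above background on all 16 arrays. RefSeq accessions were matched to symbols of GRCm38.p6 (26582 of 28116 probes with an accession, 29099 probes unnamed). A probe was tested where well above background on at least 4 arrays, and the brightest probe by mean represented its gene, which left 21070 features. One limma fit (3.58.1, R 4.3.3) took in the 16 arrays, and the step was tested on simulated data. Adjusted p-values are from limma with Benjamini-Hochberg adjustment over all features and a threshold of 0.05. The number of arrays limits the precision. Some differences are also given as at least N-fold. In these, every probe stayed at background in the dim group, and the tested probe was well above background in all 4 bright pools. The bound is the bright mean against, per dim array, the higher of the lowest detected signal and the probe's own. It holds for the group means under the main scaling and leaves out the spread between pools.

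The members and gene lists were chosen with earlier results of these data known. Named were all members, list genes past the threshold or, where none passed, up to 2 with the lowest p in the Kir2.1 comparisons at P3 and P6. Genes most like a member were to be named where it was detected on at least 12 arrays, which held for none. The mean signal planned for the normexp alternative is not in the scanner tables used here, so the median spot signal took its place, with an offset of 50. Alternatives covered scaling, background, filter, probe choice, spread, the samples fitted and each pool in turn.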

Additional observations from a re-analysis of the deposited data

Results flagged for a closer look

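In 9 of 60 groups of 4 pool values (the 13 Kir probes and both Abcc8 probes in each group), 1 pool stood apart by Dixon's test at the 95% level. Chance flags about 1 group in 20. In 8 of the 9 the pool was the highest of its group, and in 6 of these it was well above background. Kcnj9 in P3 control pool 3 read -4.08, with the other pools between -9.37 and -8.49. Kcnj4 in P6 Kir2.1 pool 1 read -2.33, with the others between -9.76 and -8.92, and Kcnj4 in P3 control pool 3 read -8.41, below the others at -4.30 to -3.97. The first probe of Kcnj14 read -5.74 in P3 control pool 2 and -5.18 in P6 Kir2.1 pool 3. Kcnj3 read -6.26 in P6 Kir2.1 pool 3, the same pool, which also had Kcnj9 well above background. Abcc8 read -2.02 in P6 Kir2.1 pool 4, with the others between -3.89 and -3.59, and that pool still lay below every P6 control pool. The remaining values were background readings, -8.38 for the second probe of Kcnj14 and -8.99 for Kcnj5, both in P3 control pool 4. No explanation of these values was tested.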

How the results depend on the processing

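The count of Kir genes past the threshold was 0 in each comparison under each of 30 alternatives (29 for the mean and the interaction, where fitting the compared groups alone is not possible). Directions reversed in a few uncalled differences, and the cause was not tested. The Kcnj12 interaction was -0.11 with normexp and -0.25 with the floor. With P6 control pools 2 and 4 only, an alternative added after seeing the data, Kcnj11 stood at 0.46 with Kir2.1 at P6, 0.67 for the mean and -1.75 for age in control, and the Kcnj12 interaction at -0.19. Leaving out each pool in turn gave, with Kir2.1 at P3, -1.70 to 0.17 for Kcnj4, -0.59 to 1.17 for Kcnj9, -0.07 to 1.67 for Kcnj11, -1.53 to 0.14 for Kcnj12 and -0.30 to 0.60 for Abcc8. It gave -0.35 to 1.05 for Kcnj10 in the mean, -1.70 to 0.17 for Kcnj9 and -0.32 to 2.1 for Kcnj11 with age in control, -2.09 to 0.65 for Kcnj10 with age in Kir2.1 cells, and -0.77 to 0.90 for the Kcnj12 interaction. The Abcc8 call at P6 passed in 29 of 30 alternatives (-4.20 to -3.30). With age in control, Apba1 passed in 30 of 30, while the calls were lost in 1 for Oprm1 (adjusted p up to 0.0561), 3 for Plcb4 (0.111), 10 for Gng7 (0.111) and 20 for Sstr1 (0.21). Counts over all features ranged from 0 to 18 with Kir2.1 at P3, 20 to 717 at P6, 70 to 365 for the mean, 181 to 920 and 24 to 285 with age in control and Kir2.1 cells, and from 9 in all to 32 higher and 75 lower for the interaction. At P6, 182 higher and 188 lower features became 253 and 106 with the value table, 206 and 153 with quantile normalization, 247 and 470 with normexp, and 269 higher of 376 when scaled over all probes, and the median of all features moved from -0.13 to 0.09 and -0.25 with the last of these and with normexp. Pools with the same number did not vary together (24 pairs, correlations of -0.03 to 0.03). With the replicate block, the differences at P6 were -3.70 for Kcnj4 (adjusted p = 0.277) and 3.81 for Kcnj9 (adjusted p = 0.213), and 182 features passed. Most Kir signals lay at background, which limits what can be seen of them.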
